A study of Mus musculus with 24 samples.

Results

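The Mir17-92 cluster of mouse chromosome 14, its paralog Mir106a-363 on chromosome X and Mir106b of the third paralogous cluster were followed by small RNA sequencing in mouse embryonic stem cells (mESC) and in neural progenitor cells (NPC) derived from them. The rows were found by matching Ensembl identifiers to the symbols Mir17, Mir18, Mir19a, Mir20a, Mir19b-1 and Mir92-1 (Mir17-92, 6 genes), Mir106a, Mir20b and Mir363 (Mir106a-363, 3 genes) and Mir106b. All 10 genes were among the 55335 genes of the deposited count table, and 4 of the 10 had a count in any of the 24 libraries. Each cell type was represented by 6 lines with 2 libraries per line: Htt WT, Htt KO (Htt knockout, Htt being the mouse huntingtin gene) and a heterozygous allelic series of Hdh CAG knock-in lines with 20, 50, 92 and 111 repeats (Q20, Q50, Q92 and Q111). The growth text of the labels gives 89 repeats for the line titled Q92, and the 4 columns so named were taken as Q92. The mESC were grown with LIF on irradiated CF-1 mouse embryonic fibroblast feeders, and NPC were obtained through N2B27 medium and kept in medium with FGF and EGF. Each genotype was represented by 1 named line as far as the labels say, so line and genotype cannot be told apart. The series describes the 2 libraries of a group as biological samples without naming separate cultures, so p-values measure the spread between these libraries.

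A microRNA cluster is transcribed as one primary RNA, from which Drosha and DGCR8 cut hairpins and Dicer then cuts the mature strands of about the length that small RNA libraries capture. A mature microRNA finds its target messenger RNAs mainly through its seed, bases 2 to 8 from its 5′ end, so microRNAs of one seed share most of their targets. Mir17-92 is activated by MYC and E2F factors, is amplified in lymphomas and represses inhibitors of proliferation and survival such as Cdkn1a and Bcl2l11 (Bim). Mir106a-363 and Mir106b-25 arose from the same ancestral cluster by duplication. All 3 clusters are active in embryonic stem cells, and Mir17-92 is also required for the expansion of neural progenitors.

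The mature sequences are shown because they define which members are interchangeable and which reads can be told apart. They were taken from RefSeq (GRCm38.p6), where all 10 genes were found, and are written 5′ to 3′ with the seed in capitals.
miR-17-5p (Mir17): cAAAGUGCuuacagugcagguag
miR-20a-5p (Mir20a): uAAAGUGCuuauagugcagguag
miR-106a-5p (Mir106a): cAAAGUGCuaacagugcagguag
miR-20b-5p (Mir20b): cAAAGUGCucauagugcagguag
miR-106b-5p (Mir106b): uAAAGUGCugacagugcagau
miR-18a-5p (Mir18): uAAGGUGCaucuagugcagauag
miR-19a-3p (Mir19a): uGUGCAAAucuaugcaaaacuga
miR-19b-3p (Mir19b-1): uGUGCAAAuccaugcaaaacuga
miR-92a-3p (Mir92-1): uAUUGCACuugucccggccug
miR-363-3p (Mir363): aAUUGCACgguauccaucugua

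The first 5 share the seed AAAGUGC, which 7 of the 1679 mature mouse microRNAs of the RefSeq table carry. Counted from 1 at the 5′ end of miR-17-5p, miR-106a-5p differs from it by U10A alone, miR-20a-5p by C1U and C12U, and miR-20b-5p by U10C and C12U. The shorter miR-106b-5p differs over its 21 bases by C1U, U10G and G20A. All these differences lie outside the seed, so that the chromosome 14 and the chromosome X clusters encode the same targeting core. The seed GUGCAAA of the Mir19 hairpins is carried by 2 of the 1679 mature microRNAs, and the seed AUUGCAC, common to miR-92a-3p and miR-363-3p, by 6. MiR-19b-3p is identical in Mir19b-1 and in Mir19b-2 of the X cluster, and miR-92a-3p is identical in Mir92-1 and Mir92-2. A read of either therefore cannot be placed at 1 locus, and how reads with several positions were counted is not given in the sources used here.

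The counts were per gene, so they give the hairpin and not the mature arm. Library totals ran from 642384 to 2360434 counts in mESC and from 342022 to 682113 in NPC, and microRNA genes received 3191 to 6357 counts per mESC library and 336 to 671 per NPC library. Most counts fell on longer genes: microRNA genes held 0.234% of the 25027120 counts. A count of 0 allowed up to 1.36 to 4.23 CPM (counts divided by the library total scaled by the TMM method, times 1e+06) in an mESC library and 4.49 to 8.44 CPM in an NPC library, taking 3 counts as the limit. These limits and all intervals cover counting error only. Htt itself had 3 and 2 counts in the KO mESC libraries against 0 to 9 in the other 10, and 1 and 1 in the KO NPC libraries against 0 to 9 in the other 10, too few to check the knockout label.

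Cell identity was checked with marker lists. The 9 stem cell mRNAs (led by Tdgf1, Nanog, Fgf4 and Zfp42) summed to 28 to 80.8 CPM in mESC libraries and to 0 to 1.95 CPM in the NPC libraries of the 5 lines other than Q20. The 9 neural progenitor mRNAs (led by Slc1a3, Ptprz1, Fabp7 and Tnc) summed to 2.56 to 17.9 CPM in mESC libraries and to 165 to 341 CPM in the same NPC libraries. The 8 feeder fibroblast mRNAs summed to 7.68 to 27.1 CPM in mESC, nearly all from Fn1 with 295 counts, and 6 of the 8 (including Col1a1, Col1a2 and Col3a1) were at 0 in every mESC library. A list of 5 feeder microRNA genes summed to 0 to 5.84 CPM in mESC libraries and to 0 to 2.99 CPM in the same NPC libraries. Of these 5 genes, 3 were at 0 in every mESC library. The part of feeder RNA in the mESC libraries was not tested.

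The 2 Q20 NPC libraries stood apart from the other 10 NPC libraries before any result of these clusters is considered. Their sum over 13 matched embryonic stem cell microRNA genes (the Mir290 and Mir302 families) was 333 and 335 CPM, or 192 and 214 counts. It was 0 to 2.29 CPM in the other 10 and 966 to 2440 CPM in mESC. Most of the Q20 NPC sum came from Mir302b (261 counts) and Mir293 (107 counts). Mir295 had 3 counts there and Mir291a 2, and 3 of the 13 genes were at 0 in every NPC library. Their stem cell mRNAs summed to 1.57 to 5.2 CPM, from 1 to 3 counts per library, with 6 of the 9 (Nanog, Zfp42, Dppa5a, Tdgf1, Fgf4 and Tfcp2l1) at 0 in every NPC library. Their neural progenitor mRNAs summed to 107 to 120 CPM against 165 to 341 CPM in the other NPC libraries. Values of these clusters in NPC are therefore given for Q20 and the other lines apart, or with and without Q20.

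In the deposited table the 6 genes of Mir17-92 had no count at all, while the paralogous X cluster was counted in every mESC library. Mir17, Mir18, Mir19a, Mir20a, Mir19b-1 and Mir92-1 were each at 0 in all 24 libraries, and so was their sum. Mir17 and Mir20a carry the same seed as Mir106a, Mir18 that of Mir18b, and Mir92-1 the mature sequence of Mir92-2, yet Mir106a reached 792 counts over the 12 mESC libraries, Mir18b 35 and Mir92-2 108. Mir17-92 spans 836 bases on the plus strand, chr14:115043671-115044506 (GRCm38), and lies whole inside a 3457-base exon of its host transcript Mir17hg, chr14:115043271-115046727. The 6 hairpins of Mir106a-363 span 875 bases on the minus strand, chrX:52741693-52742567, outside any exon of another gene apart from 5 bases of Mir106a in an exon of Kis2.

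**Figure D1:**
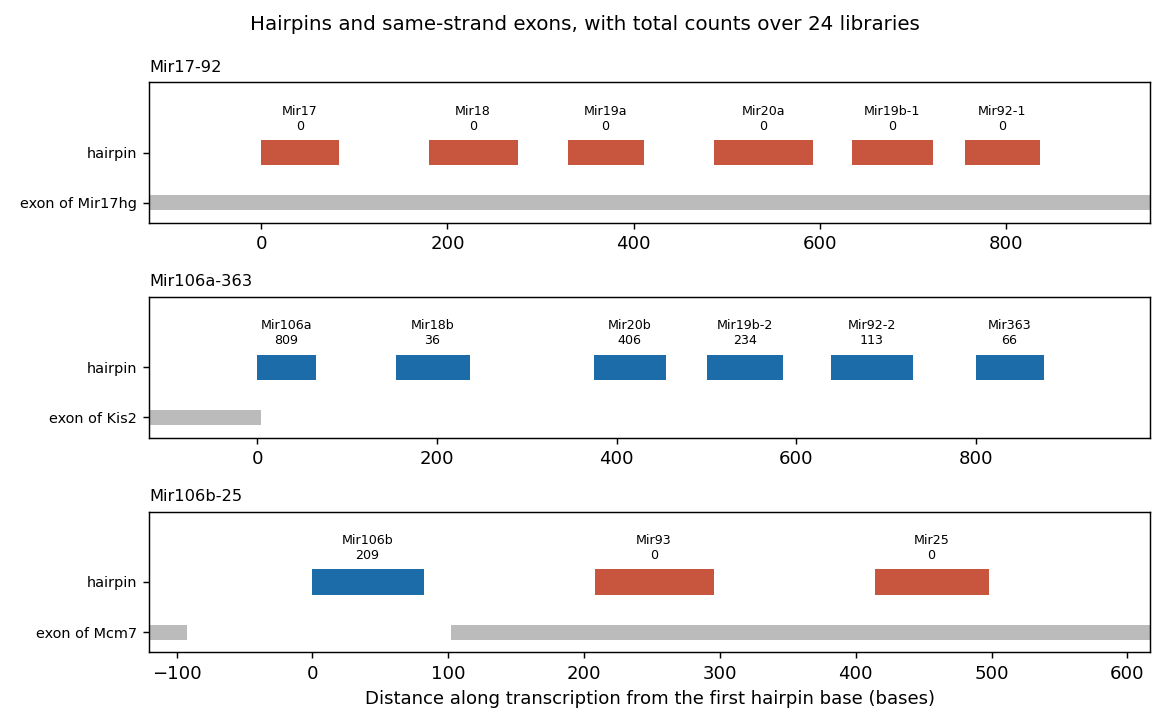
Map of the 3 paralogous clusters: the x axis is the distance in bases along transcription from the first base of the first hairpin, boxes are hairpins with their total counts over 24 libraries (red at 0, blue above 0), and grey bars are exons of another gene on the same strand. The 6 hairpins of Mir17-92 and the hairpins of Mir93 and Mir25 lie inside an exon and have 0 counts, while Mir106a, with 809 counts, touches an exon only at its first bases.

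The third paralogous cluster showed both states within 1 primary transcript. Mir106b (82 bases, chr5:138165737-138165818, minus strand) lies outside the annotated exons of Mcm7, the gene in whose intron the cluster sits, and had 209 counts. Mir93 and Mir25, its neighbours in the same cluster, lie whole in a 665-base exon of a Mcm7 transcript, chr5:138165052-138165716, and had 0 counts in all 24 libraries. Mir93 carries the AAAGUGC seed and Mir25 the AUUGCAC seed, so both seeds occur on counted and on uncounted hairpins.

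Hairpin overlap was then counted over all microRNA genes. Of 1174 microRNA genes in the table, 387 had a count. Among the 183 whose whole hairpin lies in an exon of another gene on the same strand, 0 had a count. Where only part of the hairpin lies in such an exon, 38 of 86 (44.2%) had a count, and without any other exon 307 of 818 (37.5%) did. Where the whole hairpin lies in an exon of the opposite strand only, 30 of 63 (47.6%) had a count, with 34210 counts in all. The overlap rule and strand setting of the counting program and the annotation release are not given in the sources used here, and the part of exon overlap in the zeros was not tested beyond these counts. For Mir17, Mir18, Mir19a, Mir20a, Mir19b-1 and Mir92-1 a 0 therefore gives no level of the microRNA, and no fold or comparison with the X cluster is reported.

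**Figure D2:**
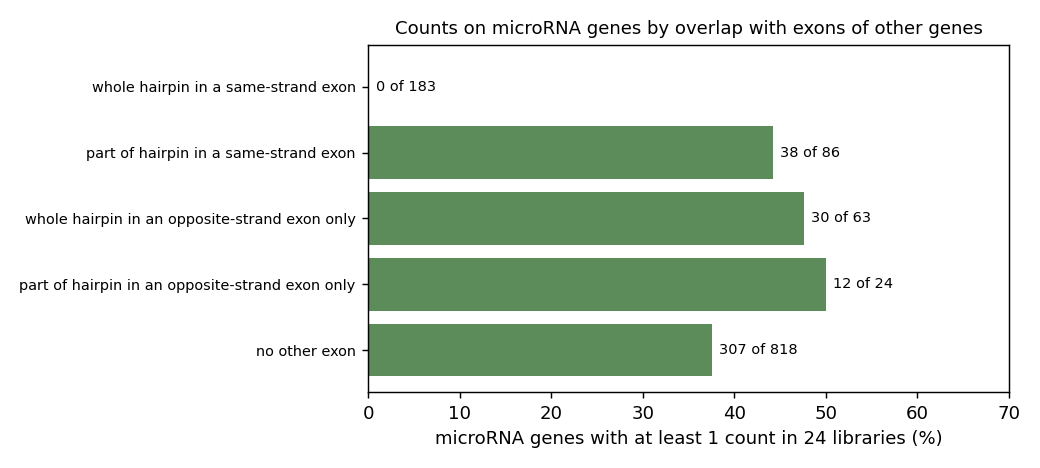
Share of microRNA genes with at least 1 count in 24 libraries (x axis, %), by how the hairpin overlaps exons of other genes (y axis), with the number of genes counted of all genes in each class. The class that holds Mir17-92, Mir93 and Mir25 stands at 0 of 183, and the other 4 classes lie between 37.5% and 50%.

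The host transcript Mir17hg itself was counted in 24 of 24 libraries, at low depth. It had 84 counts in mESC (1 to 13 per library) and 28 in NPC (1 to 6 per library). Its mESC level was 6.02 ± 5.09 CPM (SD, n = 12), that of NPC 4.71 ± 3.39 CPM (SD, n = 12), or 4.82 ± 3.71 CPM without Q20 (SD, n = 10). The log2 difference, NPC minus mESC, was -0.23 ± 0.45 (SE), with an edgeR adjusted p of 0.692. These counts come from 3536 exonic bases and do not separate fragments of the host RNA from reads of the hairpins.

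Mir106a was the most abundant hairpin of the X cluster and was found in all 12 mESC libraries. Its 65-base hairpin (ENSMUSG00000065456, chrX:52742503-52742567, minus strand, GRCm38) begins with the 5 bases, in capitals, that lie in the Kis2 exon.
Mir106a hairpin: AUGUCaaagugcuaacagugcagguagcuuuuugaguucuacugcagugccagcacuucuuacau
Its 2 mESC libraries gave 120 and 24 counts for WT, 73 and 20 for KO, 143 and 128 for Q20, 33 and 21 for Q50, 75 and 32 for Q92, and 100 and 23 for Q111. In NPC it had 7 and 10 counts in Q20 and 0 in the other 10 libraries. Every mESC library thus held the hairpin, whatever the Htt allele, and among NPC only the 2 Q20 libraries did. As levels, mESC stood at 45.4 ± 27.7 CPM (SD, n = 12, 14.9 to 103) and the Q20 NPC libraries at 12.1 and 15.7 CPM, the upper of which exceeded the lowest mESC library.

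Mir20b, which shares the seed of Mir106a, showed the same distribution at a lower level. Its 80-base hairpin lies at chrX:52742113-52742192 (ENSMUSG00000076041). The mESC libraries gave 57 and 7 counts for WT, 39 and 23 for KO, 53 and 60 for Q20, 16 and 8 for Q50, 32 and 14 for Q92, and 54 and 30 for Q111. In NPC it had 5 and 8 counts in Q20 and 0 elsewhere. The mESC level was 22.6 ± 10.9 CPM (SD, n = 12, 6.82 to 39.5) and the Q20 NPC level 8.67 and 12.5 CPM, inside the mESC range.

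Mir363, which carries the Mir92 seed, lies last in the cluster (chrX:52741693-52741767, 75 bases, ENSMUSG00000070106) and was rare. Its mESC counts were 5 and 4 for WT, 2 and 2 for KO, 7 and 16 for Q20, 8 and 5 for Q50, 3 and 3 for Q92, and 1 and 10 for Q111. It was at 0 in all 12 NPC libraries, Q20 included, where the pooled depth allows up to 0.482 CPM over all NPC and 2.47 CPM over Q20 NPC. The mESC level of 4.17 ± 2.95 CPM (SD, n = 12) lies above these pooled limits for all NPC and for Q20 NPC, but below the limit of any single NPC library, where a level like that of mESC was not detectable.

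Mir106b, of the Mcm7 intron, differed from its X-linked relatives in being present in all 24 libraries. Its mESC counts were 34 and 5 for WT, 25 and 10 for KO, 4 and 8 for Q20, 40 and 1 for Q50, 21 and 4 for Q92, and 18 and 5 for Q111. Its NPC counts were 3 and 4 for WT, 2 and 1 for KO, 4 and 2 for Q20, 2 and 3 for Q50, 7 and 1 for Q92, and 1 and 4 for Q111. The groups overlapped: 8.98 ± 5.96 CPM (SD, n = 12) in mESC against 5.50 ± 3.04 CPM (SD, n = 12) in NPC. Its values in the 2 Q20 NPC libraries, 6.93 and 3.13 CPM, lay within the range of the other NPC libraries (1.55 to 10.6 CPM).

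**Figure D3:**
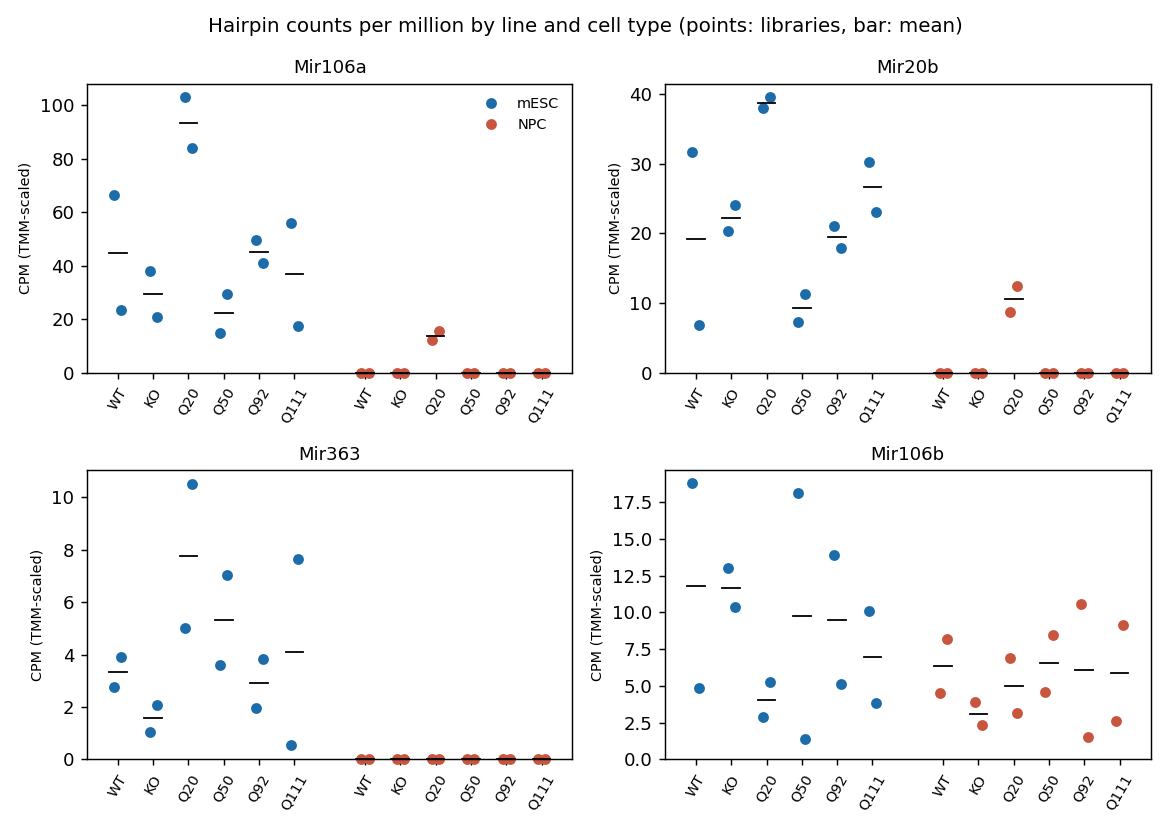
CPM scaled by TMM (y axis, a separate linear scale for each hairpin) of the 4 counted members in each library (points) by line and cell type (x axis), with the mean of the 2 libraries as a bar. Mir106a and Mir20b lie above 0 in all mESC libraries and, among NPC, in Q20 alone, Mir363 is at 0 in all NPC libraries, and Mir106b is above 0 in every library.

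The fit across all genes compared the mean of the 6 NPC groups with the mean of the 6 mESC groups. With edgeR, 528 of the 904 genes tested were called (58.4%, at an adjusted p under 0.05), 253 of them lower in NPC (28%). Of the members, Mir106a, Mir20b and Mir106b passed the filter on low counts, and 2 were called lower. Mir106a and Mir20b passed the filter through mESC, where they are high, so their count is not support by itself. Mir106a fell in NPC with an edgeR adjusted p of 5.38e-09 and Mir20b with 3.54e-08, and without the Q20 lines these were 1.99e-07 and 5.66e-07. The fitted log2 changes of -7.18 ± 0.58 and -6.27 ± 0.58 (SE) rest on groups at 0 and are no measure of size.

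Bounds of the change were therefore taken within each line, against 3 counts over the 2 NPC libraries where both were at 0. Pooling the 2 mESC libraries of a line, Mir106a was at least 19.6-fold higher in mESC than in NPC of WT, at least 20.3-fold in Q92, 10.9-fold in Q111, 10.1-fold in KO and 4.86-fold in Q50. The mESC libraries were unlike, and the lower of each pair gave bounds of 9-fold in WT (replicate 2), 17.8-fold in Q92, 4.83-fold in Q111 (replicate 2), 6.54-fold in KO (replicate 2) and 3.92-fold in Q50. In Q20, where both cell types had counts, the ratio was 6.65 (95% counting interval 4.07 to 11.6). Mir20b was at least 8.72-fold higher in mESC of Q92, 8.71-fold in WT, 7.45-fold in Q111, 6.75-fold in KO and 2.16-fold in Q50, and its Q20 ratio was 3.62 (2.04 to 7.02). For Mir20b the WT bound rests on replicate 1 (12.2-fold), since replicate 2 alone gave 2.63-fold, and the lower library of the other lines gave 1.9-fold to 7.8-fold. The order of the bounds follows depth as well as level, and only the Q20 ratios are estimates. In these bulk libraries fewer cells that carry the hairpin and less of it per cell cannot be told apart.

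Mir106b did not pass the test between cell types, with a log2 difference of -0.74 ± 0.41 (SE) and an edgeR adjusted p of 0.124. Without the Q20 lines these were -1.09 and 0.0539. The call depended on the fit: without the filter on low counts the difference was -1.33 with an edgeR adjusted p of 0.00214. That fit called 2024 of 19429 genes, with a median log2 difference of -0.35. With microRNA genes alone the difference was -1.60 with an edgeR adjusted p of 0.00598. There 42 of 53 genes were called and the median was -1.46, so Mir106b lay near the typical microRNA gene and this call is not particular to it. With the replicate number as a block it was -1.07 with an edgeR adjusted p of 0.0358. Leaving out 1 library gave -1.24 to -0.43, with a call in 9 of 24 cases. Mcm7, whose intron holds it and which encodes a subunit of the replicative helicase, averaged 10.6 ± 2.89 CPM over the mESC libraries and 7.07 ± 4.09 CPM over those of NPC (SD, n = 12), or 6.48 ± 4.14 CPM without Q20 (SD, n = 10). Mcm7 was called lower in NPC, by a log2 value of -0.67 ± 0.26 (SE), edgeR adjusted p 0.028.

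Mir363 was too low for the filter. In the fit of all 19429 genes with a count, in which 10.4% were called, its edgeR adjusted p was 1.63e-07. It had 0 counts in each NPC library and at least 1 in each mESC library. In the mESC library with 1 count its level was 0.561 CPM, far under what any NPC library could show, so this separation is not read as a difference. Every NPC library lay below every mESC library in 35 of the 904 genes that passed the filter (3.87%), a set to which Mir363 does not belong.

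Summed over Mir106a, Mir20b and Mir363, the X cluster made up 0.711% to 4.02% of all microRNA counts of an mESC library (median 2.11%). The sum was 1251 counts over the 12 mESC libraries, or 72.1 ± 38.1 CPM (SD, n = 12, 25.8 to 146). In NPC it was 12 and 18 counts in Q20, 20.8 and 28.2 CPM, and 0 in the other 10. With the 3 further hairpins of the cluster, Mir18b, Mir19b-2 and Mir92-2, the sum rose to 1623 counts in mESC and to 2 counts in the 10 NPC libraries other than Q20. Mir19b-2 fell in NPC with an edgeR adjusted p of 7.4e-07, from 13.5 ± 5.16 CPM to 0.721 ± 1.13 CPM (SD, n = 12 each). It passed the filter through mESC, where it is high, so this call is not support by itself. Of its 5 NPC counts, 3 were in Q20, and the other 10 NPC libraries stood at 0.378 ± 0.819 CPM (SD). The host of the X cluster, Kis2, had 18 counts in mESC and 0 in NPC.

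Since the 6 hairpins come from 1 primary transcript, their shares were compared per base of hairpin. In mESC Mir106a took a median of 55.3% of the cluster's counts per base (31.3% to 64.3% over 12 libraries) and Mir20b 20.8% (14.8% to 33.6%). Mir19b-2 took 14.5%, Mir92-2 4.62%, Mir363 3.82% and Mir18b 1.8%. Per base, Mir106a exceeded Mir20b in 11 of the 12 mESC libraries, with a ratio of 0.944 to 4.22 (median 2.61), the exception being replicate 2 of Q111. Over the 2 Q20 NPC libraries together, with 39 counts of the cluster, the shares per base were 49.7% for Mir106a and 30.8% for Mir20b. Dividing by length raises the share of Mir106a, the shortest hairpin at 65 bases: undivided, it had 792 of the 1623 cluster counts in mESC. The shares of Mir19b-2 and Mir92-2 also depend on how reads with several positions were counted. How much of these shares is set by the capture of each mature sequence in the library was not tested.

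**Figure D4:**
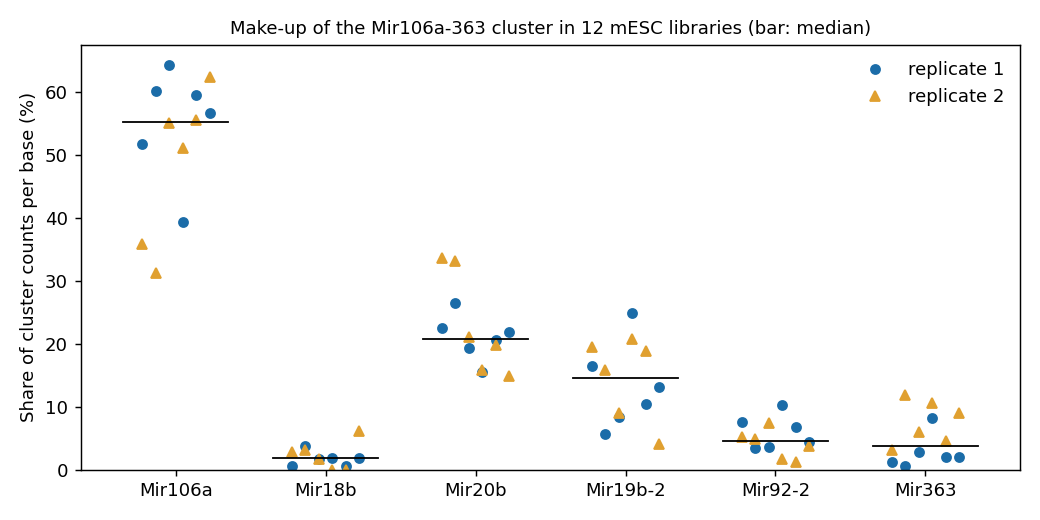
Share of the counts per base of the Mir106a-363 cluster (y axis, %) taken by each of its 6 hairpins (x axis, in the order of transcription) in 12 mESC libraries, with replicate 1 as circles, replicate 2 as triangles and the median as a bar. Mir106a has the highest median share, 55.3%, and Mir20b is next at 20.8%.

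The comparison of lines asked whether huntingtin loss or CAG length goes with a change of the clusters. In mESC Mir106a was highest in Q20 at 93.4 ± 12.9 CPM (SD, n = 2), then in Q92 at 45.2 ± 6.07, WT at 44.9 ± 30.5, Q111 at 36.8 ± 27.2, KO at 29.5 ± 12.2 and Q50 at 22.3 ± 10.4. Only Q20 stood clear of its neighbour in this order, and from Q92 down each line overlapped the next. Mir20b was also highest in Q20, at 38.7 ± 1.05 CPM (SD, n = 2), and lowest in Q50, at 9.25 ± 2.85. Between them lay Q111 at 26.6 ± 5.17, KO at 22.2 ± 2.6, Q92 at 19.5 ± 2.27 and WT at 19.2 ± 17.5, each overlapping the next.

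Both Q20 mESC libraries lay above the other 10 for Mir106a and for Mir20b, a pattern that 46 of the 1766 genes tested showed (2.6%). In the edgeR test for any difference among the 6 mESC lines, 1 of 1766 genes was called (0.0566%) and none of the 4 members tested. The unadjusted p was 0.0514 for Mir106a, 0.0676 for Mir20b, 0.227 for Mir363 and 0.456 for Mir106b, and the edgeR adjusted p was 1 for all 4, also without the filter, where 6 genes were called (0.034%). With the replicate number as a block, Mir106a had an edgeR adjusted p of 0.0383 and 29 genes were called. Same-numbered mESC libraries of the lines other than Q20 deviated together, a shift that the fit without the block counts as spread.

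Depth moved with the replicate number in mESC. In the 5 lines other than Q20, replicate 1 had 2134729 to 2360434 counts and replicate 2 had 642384 to 1149003, while the 2 Q20 libraries had 1795879 and 1901042. In these 5 lines Mir106a was higher in replicate 1 in 4, Mir20b in 3, Mir106b in 5 and Mir363 in 0, all as CPM. The host Mir17hg was higher in replicate 1 in 0 of the 5 lines. For Mir363 this order rests on 1 to 10 counts per library. Its counts were equal in KO (2 and 2) and Q92 (3 and 3), and higher in replicate 1 of WT (5 and 4) and Q50 (8 and 5). In these lines the order in CPM comes from the unlike totals, and it is not read as a move of Mir363 against Mir106a. With a depth class (more or fewer than 1500000 counts, chosen after seeing the data) as a term, edgeR called 65 genes among the mESC lines and no member, with an adjusted p of 0.0787 for Mir106a, 0.101 for Mir20b, 0.144 for Mir363 and 0.0749 for Mir106b.

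**Figure D5:**
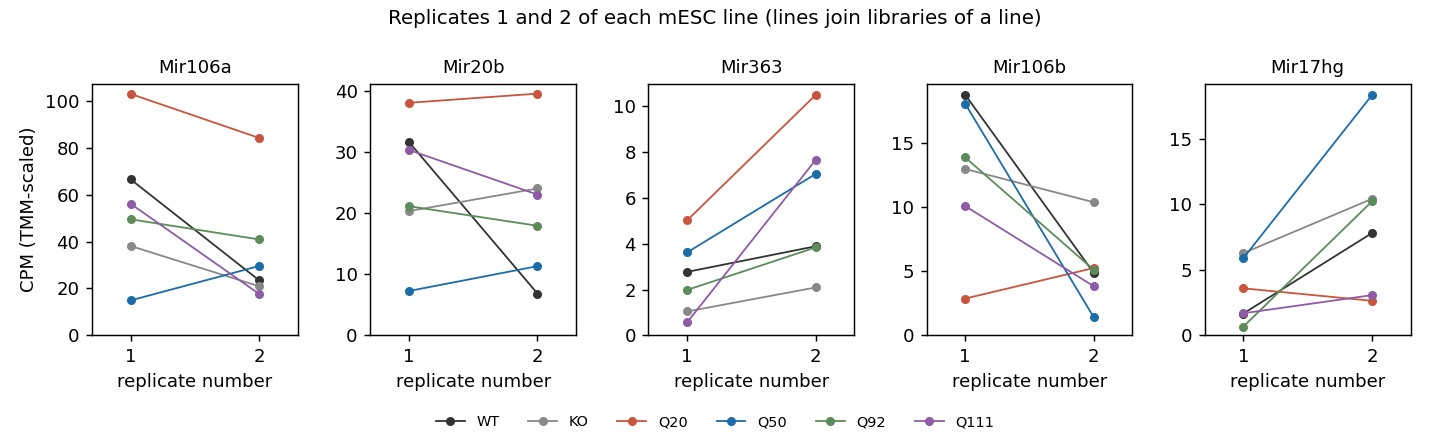
CPM scaled by TMM (y axis, a separate linear scale for each gene) in replicate 1 and replicate 2 (x axis) of each mESC line, with the 2 libraries of a line joined. Mir106b is higher in replicate 1 in all 5 lines other than Q20, Mir363 and Mir17hg are lower in replicate 1 in all 5, and Q20 lies highest for Mir106a and Mir20b.

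Loss of Htt was not accompanied by a called change of any member. In mESC, edgeR called 0 of 1766 genes between KO and WT (0%) and DESeq2 also 0, while 18 genes had an unadjusted edgeR p under 0.05. The log2 difference, KO minus WT, was -0.53 ± 0.64 (SE) for Mir106a, 0.20 ± 0.57 for Mir20b, -1.06 ± 1.05 for Mir363 and -0.01 ± 0.76 for Mir106b. These errors leave room for changes of more than 1 on the log2 scale in either direction for Mir106b. At each replicate number Mir106a was lower in KO (38.1 against 66.5 CPM and 20.9 against 23.4 CPM), while Mir20b was lower at the first (20.3 against 31.6) and higher at the second (24 against 6.82). Without replicate 1 of WT the differences became 0.48 for Mir106a, 1.77 for Mir20b, -1.29 for Mir363 and 1.39 for Mir106b. Without replicate 2 of WT those of Mir20b and Mir106b became -0.55 and -0.67. In NPC no member passed the filter in the test of KO against WT, which called 6 of 441 genes (1.36%).

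Repeat length was tested within each cell type, in the 8 libraries of the knock-in series, as a log2 slope for every 10 repeats. In mESC edgeR and DESeq2 each called 0, edgeR among 1487 genes (0%), and 48 genes had an unadjusted edgeR p under 0.05. Without the filter 2 genes were called (0.0123%), neither of them a member. The slopes were -0.13 ± 0.06 (SE) for Mir106a, -0.06 ± 0.06 for Mir20b, -0.15 ± 0.08 for Mir363 and 0.03 ± 0.08 for Mir106b, with an edgeR adjusted p of 1 for each. The negative slopes of Mir106a and Mir20b rest on Q20: without that line they were 0.15 and 0.25. In NPC, where 26 of 403 genes were called (6.45%), no member passed the filter. In the unfiltered fit, where 50 of 13150 genes were called (0.38%), Mir106a and Mir20b had slopes of -1.07 ± 0.18 and -0.97 ± 0.19 (SE), which compare counts in Q20 with 0 in the 3 longer alleles.

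Among NPC lines, Mir106a and Mir20b differed only in that Q20 had counts. No member passed the filter among the 441 genes of the NPC test, which called 164 of them (37.2%). Without the filter that test called 114 of 14269 genes (0.799%), with an edgeR adjusted p of 4.92e-05 for Mir106a, 0.00312 for Mir20b and 0.988 for Mir106b. Q20 NPC against the other 5 NPC lines gave 80 calls among the 441 filtered genes (18.1%). In the unfiltered fit of Q20 NPC against the other 5 NPC lines, 62 of 14269 genes were called (0.435%). Mir106a had an edgeR adjusted p of 2.14e-07, Mir20b of 2.39e-05 and Mir106b of 1. The contrast of Q20 NPC with the other lines was chosen because earlier results of these data had set Q20 NPC apart. Its p-values are therefore not independent of that choice and are no support by themselves. Both Q20 NPC libraries lay above the other 10 for Mir106a and Mir20b, as for 425 of the 14269 genes (2.98%). Set against the embryonic stem cell microRNAs of the same library, the summed X cluster had 6.25 and 8.41 counts per 100 in Q20 NPC, where mESC libraries had 1.4 to 8.80 (median 4.28). The make-up of those stem cell microRNAs differed: per 100 counts of Mir293 the cluster had 28 in Q20 NPC and 6.01 in mESC, and per 100 counts of Mir302b it had 11.5 and 44.7, all from pooled counts. The part of the stem cell microRNAs, or of cells that carry them, in the Q20 NPC values was not tested. Whether the cell type difference varied by line was tested over 904 genes, of which 19 were called (2.1%). The edgeR adjusted p was 0.302 for Mir106a, 0.243 for Mir20b and 0.955 for Mir106b, and with microRNA genes alone it was 0.023 for Mir106a and 0.0148 for Mir20b. Other fits of microRNA genes alone called most genes, 42 of 53 between cell types and 15 of 19 among NPC lines. The values of Mir106a and Mir20b with microRNA genes alone are therefore not read as particular to these hairpins. Without the filter 19 of 19429 genes were called (0.0978%) and no member was.

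Genes linked to the clusters were described by lists, beside a median log2 difference of -0.02 over all 904 genes. None of the 5 regulators passed the filter. Mycn, a member of the MYC family, had 100 counts in mESC and 0 in NPC, whereas Myc had 24 counts in mESC and 44 in NPC. Of 8 known targets of the AAAGUGC or neighbouring seeds, 2 passed the filter and 1 was called higher in NPC. That was Cdkn1a, the p21 inhibitor of cyclin-dependent kinases, whose mESC level of 1.57 ± 0.882 CPM compared with 13.4 ± 8.11 CPM for NPC (SD over 12 libraries a side), with an adjusted p of 1.25e-07 by edgeR. Counts on mRNA genes here come from fragments in a small RNA library and are not a measure of mRNA made for that purpose. Of 10 genes of microRNA processing, 2 passed the filter (Ago1 and Ago2, which bind mature microRNAs) and none was called. The fit without the filter called 10.4% of all genes, with a median log2 difference of -0.35. There Lin28a (-4.53, edgeR adjusted p 2.61e-08), Drosha (-1.78, 0.00114), Xpo5 (-1.55, 0.00828) and Ago1 (-1.2, 0.00521) were called lower in NPC. The rest of the list was not called.

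Among microRNAs, 6 of the 13 matched embryonic stem cell genes passed the filter and 5 were called lower in NPC, beside 28% of all genes tested. Of 12 neural microRNA genes, 4 passed and were called higher, beside 30.4% of all genes tested. The members of both lists passed the filter mainly through the cell type where they are high, so these counts are no support by themselves. Mir293, the most counted of the former, stood at 1310 ± 418 CPM in mESC (SD, n = 12), had 51 and 56 counts in the Q20 NPC libraries and was at 0 in the other 10 NPC libraries. Mir302b had 2797 counts in mESC, from 2 to 1122 per library, 261 in Q20 NPC and 1 in the other NPC libraries. The mature miR-302b-3p is shown because its seed overlaps that of Mir106a in the run AAGUGC.
miR-302b-3p (Mir302b): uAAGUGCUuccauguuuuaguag
Mir181a-1, the most counted neural microRNA, went from 0.148 ± 0.276 CPM to 210 ± 165 CPM (SD, n = 12 each). Mir106b, with counts in every library of both cell types, was in neither pattern.

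The 3 genes whose profile over the 24 libraries was most like that of Mir106a were all microRNAs of chromosome 12. Likeness was the root mean square difference of log2 CPM after centring each gene, over 901 genes, whose median was 2.21. Mir409 differed from Mir106a by 0.67, Mir127 by 0.69 and Mir341 by 0.69. Mir409 had 406 counts in mESC, 12 and 20 in Q20 NPC and 0 in the other NPC libraries. Mir127 had 442, then 14 and 12, then 1, and Mir341 had 1351, then 39 and 47, then 2. No such gene could be named for Mir17-92, which has no counts.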

How the data were processed

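Small RNA of 24 libraries was sequenced from one end (50 bases, HiSeq 2500), per the labels' protocols. CASAVA 1.8, STAR, HTSeq and GRCm38.p6 are named in the submitters' processing notes, without roles or settings. The deposited values are whole-number counts per gene, not normalized by the authors. Identifiers were matched to GENCODE mouse release 21 (55154 matched, 181 not). Tests used edgeR 4.0.16 (quasi-likelihood, TMM) in R 4.3.3 after filterByExpr (minimum count 10, minimum total 15), with Benjamini-Hochberg adjustment over all genes tested and a threshold of 0.05, on all 12 libraries of a cell type or all 24. Alternatives were DESeq2 1.42.0, other scaling, no filter, microRNA genes alone, a replicate block, left-out libraries and a depth class (above or below 1500000 counts, chosen after seeing the data). The test code was run on simulated counts with known changes. These had no shift between replicate numbers, and their spread was set smaller for the comparison of cell types than for the mESC tests. They therefore do not show how the tests behave on the spread of these libraries. CPM used scaled totals. Intervals are exact Poisson or binomial at 95%. All members were named, with the 3 most alike genes per cluster and at most 4 examples per list by total count. Further listed genes were named for zeros or for calls without the filter. The members and lists were chosen with earlier results of these data known. In mESC, same-numbered replicates deviated together in all 10 pairs of lines without Q20, with correlations of at least 0.398. Pairs with Q20 reached at most 0.0741. In NPC 4 of 15 pairs exceeded 0.1. The replicate numbers were not treated as pairs in the main tests. The values of 1 listed gene are not reported here.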

Additional observations from a re-analysis of the deposited data

How the results depend on the processing

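The fall of Mir106a and Mir20b in NPC held under every alternative in which they were tested, though the fitted log2 change, no measure of size here, went from -7.18 and -6.27 to -4.56 and -3.71 in an additive model and to -5.89 and -4.98 with DESeq2. Across members and apart from left-out libraries, 122 alternative values stayed on their side of the threshold, 11 changed sign and 6 gained a call. With 1 library left out, 257 stayed, 6 changed sign and 9 gained a call. For Mir106b, KO minus WT in mESC was 0 with DESeq2 size factors, 0.07 with library totals, 0.04 with DESeq2, 0.05 with microRNA genes alone, 0.06 with the replicate block, 0.03 with only the 4 libraries compared and 0.02 with the depth class. The mESC slope of Mir20b was 0.04 with microRNA genes alone, and without the Q20 lines the slopes of Mir106a, Mir20b and Mir106b were 0.15, 0.25 and -0.12. Leaving out 1 library gave KO minus WT of -1.19 to 0.48 for Mir106a, -0.55 to 1.77 for Mir20b and -0.67 to 1.39 for Mir106b, and a slope of -0.02 to 0.12 for Mir106b. Genes called between cell types (528) were 2024 without the filter, 42 among microRNA genes alone and 123 with wild-type lines alone. Calls among mESC lines (1) were 3 with library totals, 6 without the filter, 7 with DESeq2, 2 with microRNA genes alone, 29 with the replicate block, 65 with the depth class and 0 without Q20. Calls among NPC lines (164) were 15 with microRNA genes alone and 88 without Q20. KO against WT gave 1 call in mESC with the depth class. In NPC (6) it gave 10 with DESeq2 size factors, 1 with library totals, 24 with DESeq2, and 0 without the filter, with microRNA genes alone or with only the 4 libraries. Q20 NPC against the rest (80) gave 48 with DESeq2 and 7 with microRNA genes alone. The mESC slope (0) gave 2 without the filter, 3 with the replicate block and 2 with the depth class. The NPC slope (26) gave 50 without the filter, 11 with DESeq2, 7 with microRNA genes alone, 9 with the replicate block and 15 without Q20. The difference by line (19) gave 44 with the replicate block and 0 without Q20. Leaving out 1 library gave 646 to 724 calls between cell types, 1 to 5 among mESC lines, 100 to 227 among NPC lines, 0 to 0 and 0 to 22 for KO, 21 to 111 for Q20 NPC, 0 to 3 and 6 to 34 for the slopes and 8 to 32 by line. Every fit with 1 library left out tested more genes than its main fit, 1289 to 1373 against 904 between cell types. The ranges of calls with 1 library left out therefore rest on other gene sets. More calls there are not read as a gain over the main fit. The fewest Q20 NPC and NPC slope calls came without Q20 NPC replicate 1. The block also gave Mir106b a call between cell types (-1.07, adjusted p 0.0358). The causes were not tested. The median log2 difference between cell types, over the genes tested in each fit, was set against that of the main fit (904 genes). It differed by 0.34 with library totals (the same 904 genes) and by -0.33 without the filter (19429 genes). With microRNA genes alone (53 genes) it differed by -1.44, and without Q20 (850 genes) by -0.15. Of these, only the value with library totals compares the same genes. Depth limits Mir363, at 1 to 16 counts per mESC library, and the NPC values throughout.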
